A study of Homo sapiens with 29 samples.

Results

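The whole-cell list of RNA windows recovered with hnRNPA1 holds 13007 windows in 6967 genes, and 1275 of them (9.80%), in 873 genes, are described here. They are the windows named for a nuclear gene that has no row in the gene table of the hnRNPA1 knockdown, matched by Ensembl ID without its version. They were thus chosen by the absence of a gene's ID from that table, and none of their window values was used. They are called unlisted-gene windows below, and the other 11704 windows off the mitochondrial chromosome, in 6066 genes, are called listed-gene windows. The remaining 28 windows lie on the mitochondrial chromosome and were left aside.

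The cells are HEK293, a line derived from human embryonic kidney. hnRNPA1 is an abundant protein of the nucleus that binds RNA, acts on splice site choice and moves between nucleus and cytoplasm. All 29 samples of the series are HEK293 cells. In 21 of them RNA was recovered by RNA immunoprecipitation (RIP) with hnRNPA1 antibody or with normal IgG: whole-cell lysate (3 hnRNPA1 and 3 IgG), cytosol (4 and 4) and mitochondria (4 and 3). The other 8 are RNA-seq libraries of cells given hnRNPA1 siRNA (4) or control siRNA (4), and the RIP cells were untreated per the labels. Each compartment has 1 deposited window list, so window values have no replicate check, and the IgG libraries enter only as far as the authors' lists used them, a step not given in the sources used here.

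Genes that such a table does not hold are often long noncoding RNAs. Many of these lie inside or beside a coding gene: antisense RNAs run across it on the other strand, divergent RNAs leave its promoter in the opposite direction, and read-through RNAs join it to a neighbour. Small nucleolar RNAs, small Cajal body RNAs and many microRNAs are cut out of the RNA of a longer host gene, so a window named for such a gene and a window named for its host can be the same stretch of RNA. Processed pseudogenes are copies of a messenger RNA set into the genome elsewhere, and reads from the parent and the copy can be hard to tell apart.

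The sequences under some of these windows show what the names stand for. For 4 of the 5 unlisted-gene windows named for microRNAs, the mature sequences in RefSeq (GRCh38.p14), 5 in all, are given because the windows are far longer than the RNA that names them. Capitals mark the seed, bases 2 to 8, which pairs with target RNAs, and the 5 seeds differ from each other.
hsa-miR-198: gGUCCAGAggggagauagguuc
hsa-miR-4709-3p: uUGAAGAGgaggugcucuguagc
hsa-miR-4709-5p: aCAACAGUgacuugcucuccaa
hsa-miR-3661: uGACCUGGgacucggacagcug
hsa-miR-1244: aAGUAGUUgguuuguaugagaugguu

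Other windows lie across the start of a coding gene, on the opposite strand. The start stretches of PNN (a nuclear speckle protein), NDUFB2 (a subunit of mitochondrial complex I) and ZSCAN5A (a zinc finger protein) are shown since each lies whole inside a window named for the antisense RNA of that gene. They are the 3 with the highest signal values of 13 such windows. CTXN2 is also shown, with a window on the gene's own strand, as the highest of 5 windows that cover the start of the gene they are named for. Each is read on the gene's own strand from RefSeq (GRCh38.p14), 250 bases before the annotated start in lower case and 30 bases from the start on in capitals.
PNN, chr14:39175004-39175283, plus strand: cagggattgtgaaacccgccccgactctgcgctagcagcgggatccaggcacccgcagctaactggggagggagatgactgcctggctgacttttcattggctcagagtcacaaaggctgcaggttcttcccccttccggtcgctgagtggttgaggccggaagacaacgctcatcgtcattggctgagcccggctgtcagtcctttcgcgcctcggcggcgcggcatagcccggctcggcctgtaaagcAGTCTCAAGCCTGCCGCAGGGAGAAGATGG
NDUFB2, chr7:140696458-140696737, plus strand: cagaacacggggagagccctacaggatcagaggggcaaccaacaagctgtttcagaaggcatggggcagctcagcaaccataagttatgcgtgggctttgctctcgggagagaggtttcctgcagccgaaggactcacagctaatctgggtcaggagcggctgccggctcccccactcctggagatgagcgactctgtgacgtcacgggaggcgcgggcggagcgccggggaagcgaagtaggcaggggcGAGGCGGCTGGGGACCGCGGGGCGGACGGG
ZSCAN5A, chr19:56314810-56315089, minus strand: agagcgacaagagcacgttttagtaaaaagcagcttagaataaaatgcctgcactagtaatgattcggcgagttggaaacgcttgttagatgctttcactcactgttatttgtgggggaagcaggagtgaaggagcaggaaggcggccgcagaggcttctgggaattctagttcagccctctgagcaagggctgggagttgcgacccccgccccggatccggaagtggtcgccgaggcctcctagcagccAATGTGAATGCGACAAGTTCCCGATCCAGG
CTXN2, chr15:48178188-48178467, plus strand: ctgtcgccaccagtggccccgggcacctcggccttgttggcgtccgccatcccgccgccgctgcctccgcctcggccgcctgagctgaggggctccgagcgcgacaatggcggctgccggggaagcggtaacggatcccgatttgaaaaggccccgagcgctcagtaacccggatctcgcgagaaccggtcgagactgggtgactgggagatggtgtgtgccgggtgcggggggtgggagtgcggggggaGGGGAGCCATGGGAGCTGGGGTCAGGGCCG
TAGGG, letters that hnRNPA1 is known to prefer in RNA (as UAGGG), occurs on the window's strand in 1 of these 4 stretches, that of NDUFB2. Over all 35116 start stretches in the table, cut to the same length, 17.5% hold it on the gene's strand and 17.4% on the other. Both strands were searched over all start stretches, but only the window's strand in the 4 printed ones. Matches were not checked for overlap with other motifs.

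Absence from the knockdown table does not show that a gene is silent. The table has 16382 rows sorted by ID, which with its header and treatment line makes 16384 lines, a limit of spreadsheet columns, and 144 unlisted-gene windows (11.3%, 88 genes) carry an ID later than its last. The other 1131 windows (88.7%, 785 genes) have IDs within its range. The table also holds no gene whose highest library value is under 8.51 normalised reads, while 129 listed-gene windows in 93 genes belong to genes with a mean under 10. In 5 unlisted genes with 8 windows (DNAJC9-AS1, ITFG2-AS1, PINX1 and 2 IDs of MKKS) the same symbol does have a row under another ID. In 32 genes with 68 windows the ID is not in the table of gene names, and all 32 lie inside the span of a RefSeq gene. The 9 windows of one of them lie inside PRRC2B. The genes are therefore named here by that rule and not as unexpressed genes.

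Most of the genes had no symbol. Unlisted-gene windows without a symbol numbered 850 (66.7%, 547 genes), against 276 (2.36%) of the listed-gene windows. The named ones were led by antisense genes, with 159 windows (12.5%, 113 genes) against 158 (1.35%) among listed genes. Protein-coding genes gave 131 windows (10.3%, 100 genes), against 10745 (91.8%). Pseudogenes followed with 63 windows (4.94%, 52 genes), against 204 (1.74%). Long intergenic noncoding (LINC) genes gave 22 windows, other noncoding genes 17, divergent transcripts 15, microRNAs 5, microRNA or small nucleolar RNA host genes 3, small nucleolar RNAs 3, genes with a symbol but no RefSeq type 3, small Cajal body RNAs 2, and an overlapping transcript (WDR7-OT1) and a U6 copy (RNU6-395P) 1 each. No listed-gene window was named for a microRNA. Genes shorter than a window, by RefSeq, named 19 unlisted-gene windows (4.74% of those with a RefSeq gene), against 47 (0.414%) of the listed-gene windows.

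**Figure D1:**
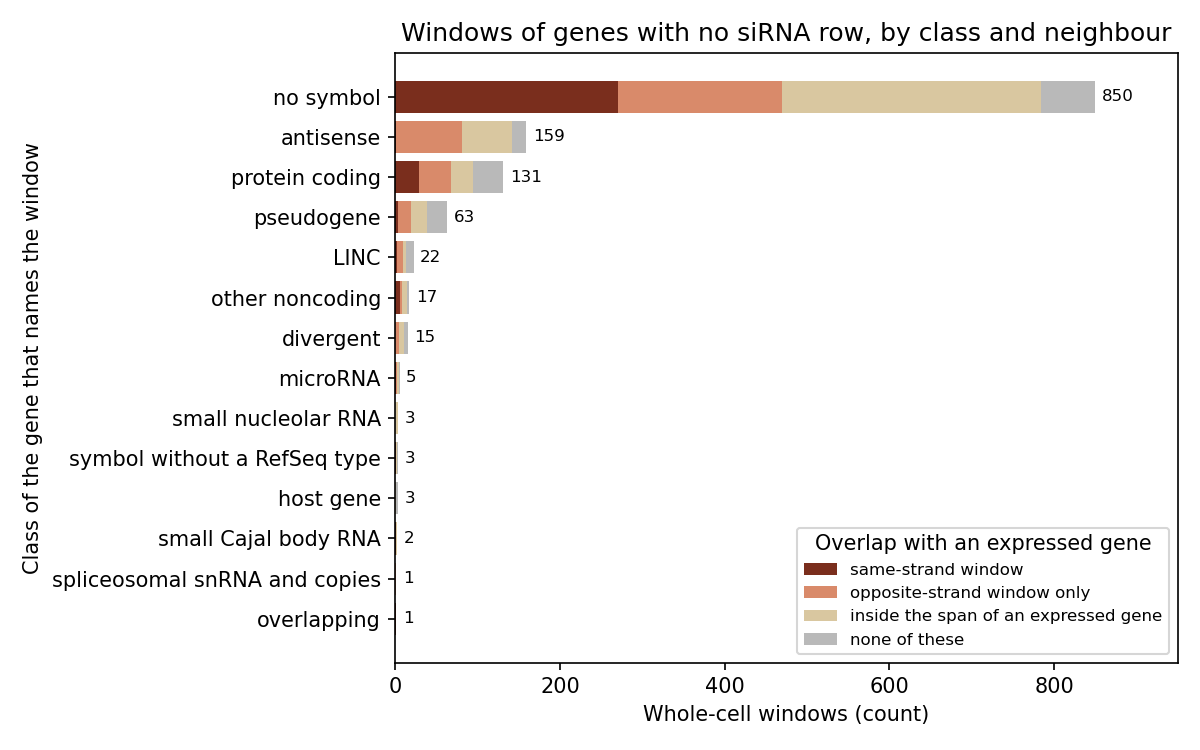
Unlisted-gene windows by class of the gene that names them (rows) and count (horizontal axis), with the number at each bar's end. Colours give what the window overlaps; the 850 windows without a symbol exceed all named classes together, and 1 of the 159 antisense windows overlaps a same-strand window.

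All but 167 of these windows overlapped a window of a gene that the table does hold or lay for at least 50% of their length inside the RefSeq span of one, on either strand. Windows named for another gene with a row overlapped 315 of the 1275 unlisted-gene windows on the same strand (24.7%, 95% Wilson interval 22.4 to 27.1%), against 572 of 11704 listed-gene windows (4.89%, 4.51 to 5.29%). Over all these windows the share was 6.83%. On the opposite strand such windows overlapped 370 (29.0%, 26.6 to 31.6%), against 966 (8.25%, 7.77 to 8.77%), and 10.3% over all. Both strands were overlapped in 20 windows. The intervals cover counting error only, and windows of 1 gene are not independent.

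Sorted so that each window counts once, 315 unlisted-gene windows had a same-strand neighbour and 350 (27.5%) only an opposite-strand one. A further 137 (10.7%) lay inside a RefSeq gene with a row on the same strand without any window there, 263 (20.6%) inside one on the opposite strand, and 43 (3.37%) inside one whose strand was not known. This left 167 windows (13.1%), against 9319 (79.6%) of the listed-gene windows, that did none of these. A window's own gene was left out here. Each listed-gene window is named for a gene with a row, so the 79.6% are not windows outside such genes. The classes divided differently among these places. Of the 159 antisense windows 1 overlapped a same-strand window and 80 only an opposite-strand window, while of the 850 windows without a symbol 270 overlapped a same-strand and 200 only an opposite-strand window. Some of the 167 still touch such a gene over a shorter length, as PNN-AS1 does at the PNN start. Among them were 66 without a symbol, 37 protein-coding, 25 pseudogene, 18 antisense and 9 LINC.

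**Figure D2:**
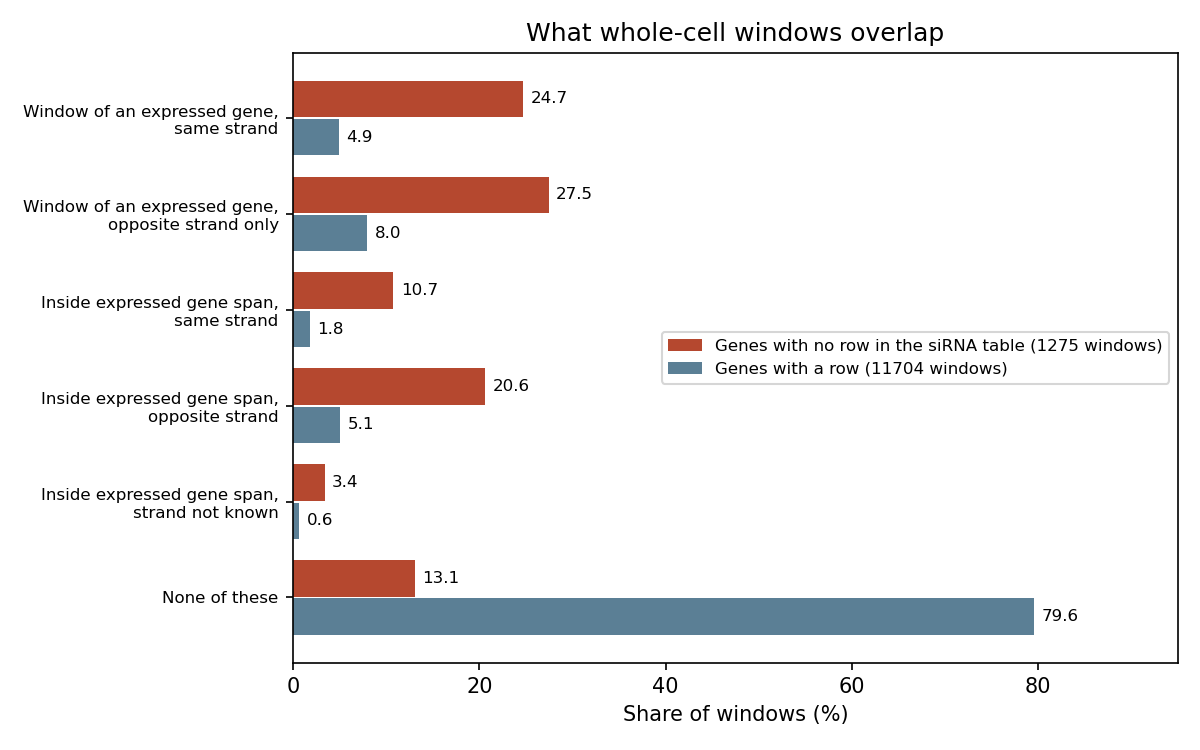
Share of windows (horizontal axis, %) in each of 6 places (rows), for unlisted-gene windows (upper bar) and listed-gene windows (lower bar). The first 5 places together hold most unlisted-gene windows, while 79.6% of listed-gene windows fall in the last. A window's own gene, which for listed-gene windows has a row, is not counted.

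The start of another gene was also under many of these windows. On the opposite strand, 138 of 1253 unlisted-gene windows (11.01%) overlapped the RefSeq start stretch of another gene (the table's full 300 bases), against 833 of 11348 listed-gene windows (7.34%), and 7.71% over both. On the same strand the shares were 6.30% against 1.08%, and 1.6% over both. A gene's own start was overlapped by 25 unlisted-gene windows (2.00%), against 1600 listed-gene windows (14.1%). Own starts were matched by symbol, so windows without a symbol could not match. These were 850 unlisted-gene windows (66.7%) and 276 listed-gene windows (2.36%). The own start of such a gene counts as another gene's, so neither the own-start shares nor the same-strand shares are like for like. Among antisense windows 38 of 159 (23.9%) lay on an opposite-strand start, and among windows without a symbol 85 of 850 (10.0%). Chromosome 8 was not analysed for starts, and its windows count as having none in these class shares.

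Signal values, the authors' own score for each window with no stated unit, had nearly the same middle in both sets and a longer upper end among unlisted genes. The median was 1.24 for unlisted-gene windows (95% interval of the median 1.20 to 1.27), against 1.22 (1.21 to 1.22) for listed-gene windows. The upper quartile was 1.63, against 1.53. A value of 2 or more was held by 177 unlisted-gene windows (13.9%), against 934 (7.98%), and 8.56% over all. A value of 3 or more was held by 49 (3.84%), against 79 (0.675%), and 0.986% over all. Unlisted genes named 42 of the 100 highest windows of the list and 8 of the 20 highest. A q-value listed as 0 was given to 132 unlisted-gene windows (10.4%), against 632 (5.40%).

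Level in the knockdown libraries moved with the upper end too. Among listed-gene windows, values of 3 or more made up 5.43% of the 129 windows of genes with a mean under 10 normalised reads, 2.48% of the 605 at 10 to 100, 0.381% of the 5254 at 100 to 1000 and 0.647% of the 5716 at 1000 or more. The part of a gene's level in the unlisted-gene values was not tested. The place of the window moved with it as well. The 167 windows in none of these places had the highest median, 1.49, and the 137 inside a same-strand gene without a window there the lowest, 1.05. By class, the medians were 2.49 for the 5 microRNA windows, 1.60 for LINC, 1.44 for pseudogenes, 1.33 for protein-coding genes, 1.22 for genes without a symbol, 1.21 for antisense and 1.16 for divergent genes. The 144 windows with late IDs had a median of 1.23, against 1.24 for the 1131 with earlier IDs.

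**Figure D3:**
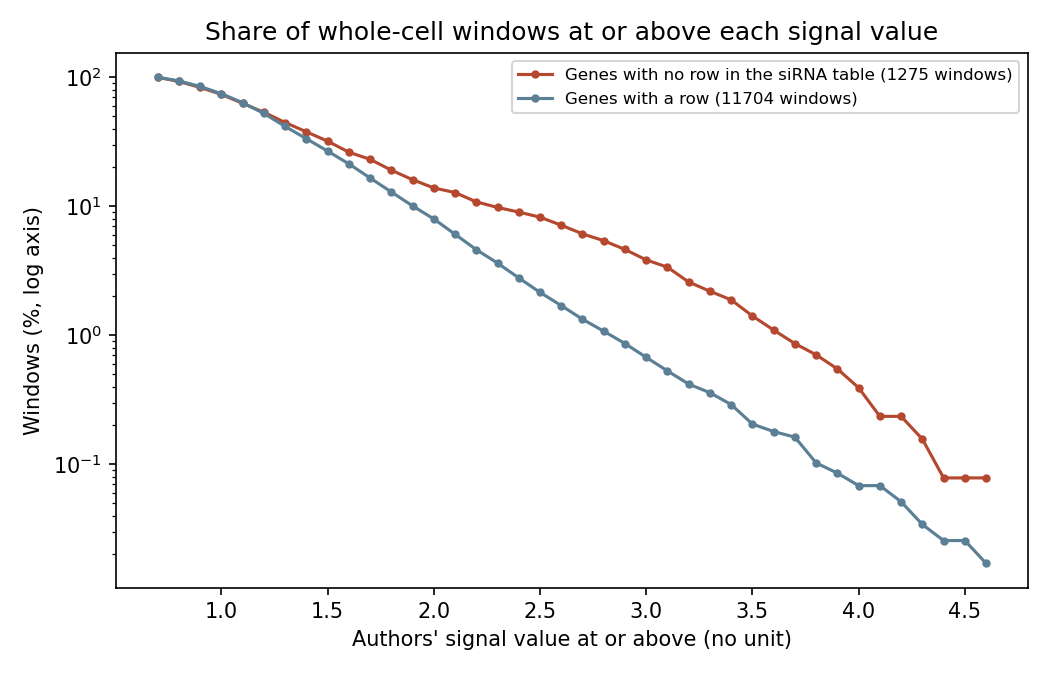
Share of windows (vertical axis, %, log scale) with a signal value at or above that on the horizontal axis, for unlisted-gene and listed-gene windows. The curves run together near the middle and part above it, to 3.84% and 0.675% at a value of 3.

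The highest unlisted-gene windows included windows without a symbol across an expressed gene and windows named for a short RNA or a copied gene. The highest, 4.68, was at chr11:73760563-73761063 without a symbol, opposite a window of RAB6A (a Golgi transport GTPase) with a value of 2.04. TPRG1, a coding gene, had 4.31 in a window that fell in none of these places. A window without a symbol at chr6:153282320-153282820 had 4.22 and lay in the span of the ribosomal protein pseudogene RPL27AP6, opposite a window with 2.62 whose gene also has no symbol. At chr15:59689017-59689517 a window had 4.04 opposite BNIP2 (a BCL2-interacting protein), whose window had 0.85. These windows were chosen for their high values. Over all 427 opposite-strand pairs the unlisted-gene window was higher in 219, the expressed-gene window in 199, and 9 were equal.

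Antisense and intergenic genes were among them. RNF185-AS1 had 3.98 inside the span of RNF185 (a ubiquitin ligase of the endoplasmic reticulum) on the opposite strand, where RNF185 had no window under it. PNN-AS1 had 3.44 across the PNN start printed above, and PPP1R12A-AS2 had 3.29 opposite a PAWR window (a pro-apoptotic factor) with 2.56. LINC00486 had 3.81, LINC00987 3.40 at the pseudogenes A2MP1 and PTMAP4, and LINC01198 2.83 at the pseudogene COX17P1. The values of LINC00987 and LINC01198 share the limit given below for copied genes. Divergent transcripts were lower, with 2.12 for CEP192-DT, 1.87 for SCMH1-DT and 1.69 for TWSG1-DT.

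Small RNAs cut from host genes gave some of the highest values. SCARNA17, which guides chemical modification of spliceosomal RNA, had 4.05 at chr18:49814133-49814633. It shares 390 bases with a window of its host SNHG22 that had 1.48, and a window without a symbol at chr18:49814361-49814861 with 3.77 shares 162 bases with that same SNHG22 window. SNORA71A, which guides pseudouridylation of ribosomal RNA, had 3.53 inside SNHG17, where SNHG17 had no window under it. SNORD24 had 1.80 inside RPL7A, SNORD86 1.14 inside NOP56, and SCARNA21 1.84 inside CHD3. The U6 copy RNU6-395P had 3.15 opposite a window of POLR2D (an RNA polymerase II subunit) with 1.71.

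Some of the 5 microRNA windows likewise lay in messenger RNA genes on the same strand. MIR7705 had 3.05 inside PABPC1 (the main cytoplasmic poly(A)-binding protein). MIR198 had 2.52 and shared 375 bases with a window of FSTL1 (a secreted glycoprotein) that had 0.83; the miR-198 sequence is known to lie in the FSTL1 messenger RNA. MIR4709, with both mature arms printed above, had 2.49 inside NPC2 (a lysosomal cholesterol carrier), which had no window there. MIR3661 had 2.22 on the strand opposite a window of PPP2CA with 1.78, and MIR1244-1 had 1.83 in none of the places above. The libraries were of total RNA, and a 500-base window covers a microRNA together with the RNA around it, so mature and host RNA cannot be told apart in these values.

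Copied genes formed a further group. RPS26P19, a ribosomal protein pseudogene, had 3.80 inside POLR2D on the same strand. ENSAP2 had 3.68 and PMS2P2 (from a mismatch repair gene) 3.62. A window without a symbol at chr12:119194850-119195350 had 3.66 in the span of PDAP1P1, and one at chr13:46490746-46491246 had 3.57 in the span of COX17P1, with LINC01198 across from it. A window with 3.58 at chr21:8217120-8217620 lay inside the ribosomal RNA genes RNA28SN2 and RNA45SN2, which are near-identical repeats. These values are uncertain for any single copy, since the sources used here do not say how reads that match several copies were placed.

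Other high windows included some across from or inside coding genes. Windows without a symbol had 3.77 at chr1:151759541-151760041 opposite MRPL9 (a mitochondrial ribosomal protein) and 3.50 at chr1:151612038-151612538 opposite an SNX27 window (an endosomal sorting nexin) with 1.33. FSCN3, a fascin of the testis, had 3.45 inside ARF5. MKKS, a chaperonin-like protein of the cilium, had 3.40 under an ID late in the order, and its symbol has a row under another ID. Of the host genes, MIR2052HG had 2.80 and MIR4300HG 1.44, both in none of the places above. Their windows lay at the pseudogenes PCBP2P2 and RPS28P7, so their values share the limit given for copied genes. SNHG14 had 1.29 inside UBE3A on the opposite strand. In the remaining classes ZFP91-CNTF had 1.86, KAAG1 1.83, UBE2F-SCLY 1.55, FAM166A 1.56, SAGSIN1 1.17, C12orf40 1.08 and WDR7-OT1 1.29.

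Where an unlisted-gene window and an expressed-gene window covered nearly the same bases of the same strand, their values were close. There were 457 same-strand pairs with 219 expressed genes and a median of 364 shared bases, of which 4 had identical coordinates. In the 106 pairs that shared 450 bases or more, the absolute difference in signal value had a median of 0.11, and 51 pairs (48.1%) were within 0.1. In the 62 opposite-strand pairs that shared as much, the median difference was 0.34, and 15 (24.2%) were within 0.1. In same-strand pairs sharing 250 bases or more but under 450 the median difference was 0.19, and in those sharing less it was 0.26. In opposite-strand pairs it was 0.32 and 0.34 in those bands. Across the closest pairs Spearman's rho was 0.62 on the same strand and 0.40 on opposite strands, as a description, since such pairs share most of their bases and same-strand pairs can share reads. In those 106 same-strand pairs the unlisted-gene window was higher in 57, the expressed-gene window in 48, and 1 pair was equal.

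**Figure D4:**
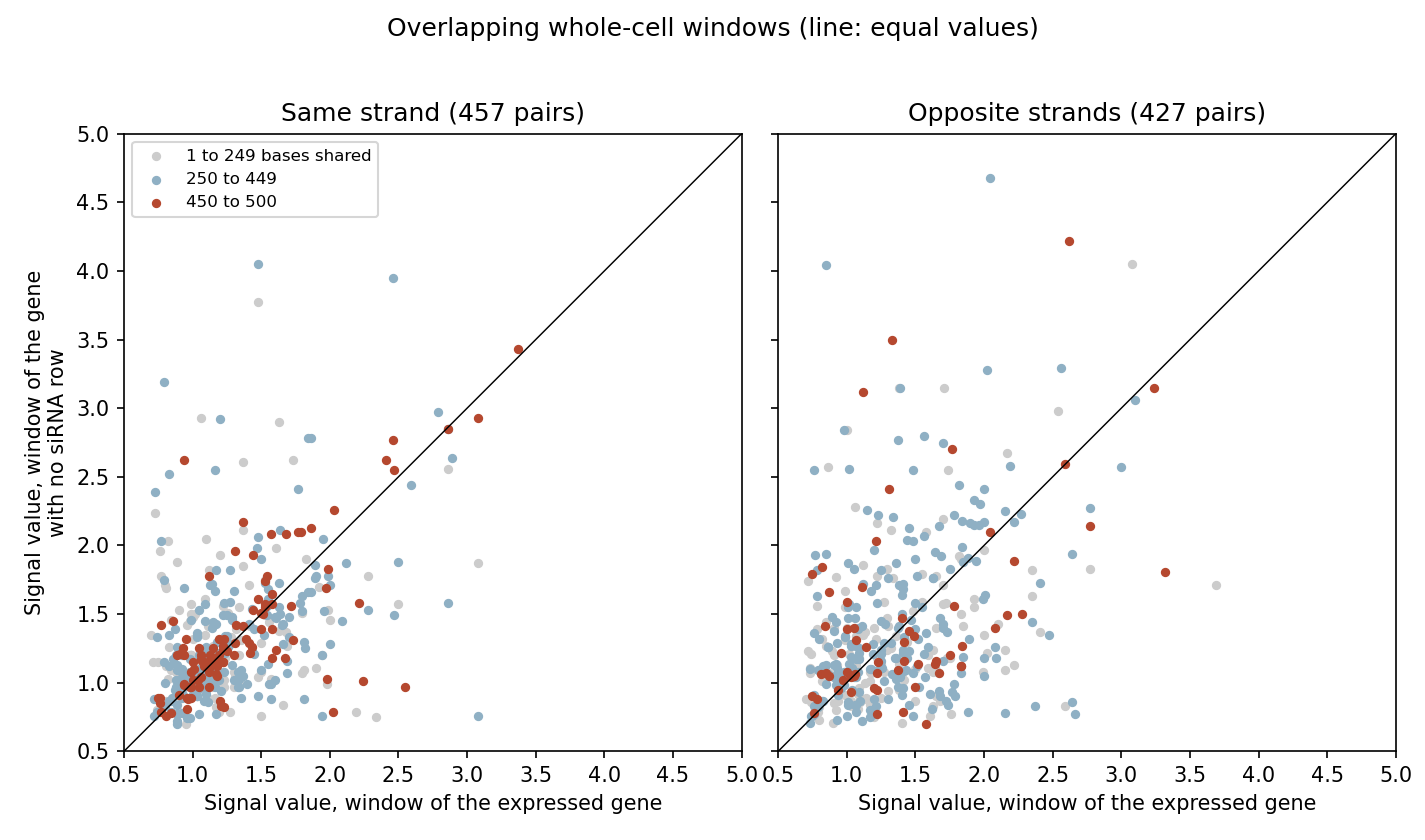
Signal value of each unlisted-gene window (vertical axis) against that of the expressed-gene window it overlaps (horizontal axis), for 457 same-strand pairs (left) and 427 opposite-strand pairs (right), coloured by shared bases. Same-strand pairs sharing 450 bases or more (red) keep nearer the line of equal values, with a median difference of 0.11, than opposite-strand ones, with 0.34.

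The pairs with the highest unlisted values were of both sorts, near-equal and far apart. A gene without a symbol on chromosome 22 had 3.43 at chr22:24572507-24573007, where SNRPD3 (a core protein of spliceosomal particles) had 3.37 over 451 shared bases, and 2.93 at chr22:24574507-24575007, where SNRPD3 had 3.08. NT5C1B-RDH14, a read-through of 2 genes, had 2.97 where RDH14 (a retinol dehydrogenase) had 2.79. Values stood further apart at chr14:67674320-67674820, with 3.19 against 0.79 for VTI1B (a vesicle SNARE). The pseudogene PPP1R14BP3 had 2.90 against 1.63 for ELF2 (an ETS transcription factor), on 182 shared bases.

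Read-through genes made up 8 of the 100 coding genes, with 15 windows, and 11 of those windows overlapped a same-strand window of an expressed gene. RBAK-RBAKDN had 5 of the 15 windows, not all with such an overlap, with 2.92 against 1.20 for RNF216P1 at the highest and 1.49 against 2.47 for RBAK at another. MICOS10-NBL1 had 1.66, against 1.84 for MICOS10 and 1.86 for NBL1. The other 92 coding genes had 116 windows, of which 18 overlapped a same-strand window and 37 fell in none of the places above. Clustered protocadherins were among these: single windows of PCDHGA12, PCDHGA8, PCDHGA3 and PCDHGA7, with 1.20, 1.08, 1.02 and 0.97, lay over windows of 16 expressed genes of the same cluster with 0.88 to 1.34. The genes of the cluster share their last exons, so those 4 windows alone made 91 of the 457 pairs, and their reads cannot be given to a single gene. Without them the median difference of the closest pairs was 0.13 in 94 pairs.

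Most unlisted genes had a single window. One window was found in 653 of the 873 genes (74.8%), against 53.0% of listed genes, and 21 genes had 5 or more. The gene with the most, 13, has no symbol and runs over EXOSC3, TRMT10B, DCAF10 and SLC25A51 on chromosome 9, with values of 0.78 to 1.96, and 10 of its windows overlapped a same-strand window. The PRRC2B gene noted above had 9 with 0.81 to 1.80. A gene without a symbol over HOXA10 and HOXA9 (homeobox factors of body patterning) had 8, all with a same-strand overlap and with 0.74 to 1.78. A gene without a symbol over MTAP, CDKN2A and CDKN2B-AS1 had 7 with 0.84 to 2.55, one inside PRR11 had 7 with 0.72 to 1.73, and OBI1-AS1 had 7 with 0.98 to 1.38. Genes without a symbol at SNRPD3, IRS4, ZNF780A, chr15:90272817-90277317 and PDE8B had 6 each. Chromosome 15 had the largest share of unlisted-gene windows, 83 of its windows (17.0%), and chromosome 4 the smallest, 19 (4.53%).

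Few of these windows recurred in the lists of the other compartments. A cytosolic window overlapped 15 unlisted-gene windows on the same strand (1.18%, 0.714 to 1.93%), against 122 listed-gene windows (1.04%, 0.874 to 1.24%), and 1.06% over all. A mitochondrial-fraction window overlapped 49 (3.84%, 2.92 to 5.04%), against 152 (1.30%, 1.11 to 1.52%), and 1.55% over all. Opposite-strand overlap with the mitochondrial list was found in 29 (2.27%), against 50 (0.427%), and 0.609% over all, and with the cytosolic list in 6 (0.471%), against 8 (0.0684%), and 0.108% over all. The same 500 bases were listed again in 12 cytosolic and 37 mitochondrial cases.

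By gene, 35 unlisted genes (4.01%) had a cytosolic window, against 467 listed genes (7.70%), and 110 (12.6%) a mitochondrial-fraction window, against 701 (11.6%). TPRG1 had 4.31 in the whole-cell list and 1.53 in the cytosolic, and SCARNA17 had 4.05 and 1.09. The values were scored separately in each list, so their order between lists shows no change. Windows in all 3 lists were found for 3 unlisted genes, with highest values that can come from different windows of a gene. PRC1-AS1 had 1.58 whole-cell, 1.28 cytosolic and 1.41 mitochondrial, and CRTC3-AS1 had 1.30, 0.87 and 1.64. A gene without a symbol had 0.89 whole-cell at chr12:56171859-56172359. Its cytosolic 2.07 and mitochondrial 1.22 were at chr12:56173859-56174359, where the whole-cell value was 0.79. PRC1-AS1 lies opposite PRC1, a spindle midzone protein, and CRTC3-AS1 opposite CRTC3, a coactivator of CREB. The window with 0.89 has the same coordinates and strand as a whole-cell SMARCC2 window.

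The knockdown table can be read for the expressed genes under these windows. In these libraries 4 of 6 HEK293 marker genes were above the table's median gene mean of 278 normalised reads, with VIM at 8167 to 9438, KRT8 at 2003 to 2792, and NEFL and KRT18 between 1448 and 2013. NEFM, at 73.8 to 168, and PAX2, at 4.92 to 16.9, were below it. PTPRC, CD3E, CD14, PECAM1, CDH5, VWF, DCN, ALB and APOB had no row, and COL1A1, COL3A1, LUM and KDR ranged over 8.65 to 64.9. Reads in genes with a row were estimated at about 16600000 to 22100000 per library. For this, each library's sum was divided by a step of which 82.4% to 84.7% of its values are whole multiples. The estimate is therefore rough, and full library depth is not known from it. HNRNPA1, the target, had 6506, 6413, 7185 and 5306 normalised reads with hnRNPA1 siRNA, against 18637, 20403, 18614 and 19348 with control siRNA. The groups did not overlap, and hnRNPA1 siRNA libraries averaged 33.0% of control (log2 fold change -1.61, SE 0.09, limma adjusted p = 2.2e-06, n = 4 each). In bulk libraries less RNA per cell and fewer cells with the RNA cannot be told apart. Nothing in the labels says the 4 libraries of a group come from separate cultures, so the p-values cover only the spread between these libraries, which may be technical. HNRNPA1 is itself under 2 unlisted-gene windows of 1 gene without a symbol. They had 1.35 at chr12:54283131-54283631 and 0.72 at chr12:54284131-54284631, where HNRNPA1 windows on 438 shared bases had 1.52 and 0.89.

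Of the 219 expressed genes with a same-strand window over an unlisted-gene window, 214 could be tested and 8 passed an adjusted p of 0.05 (3.74%), with limma on log2(value + 1) and Benjamini-Hochberg adjustment over 15267 genes. Over all genes 252 passed (1.65%). Of the 8, 5 were higher with hnRNPA1 siRNA, where 0.675% of all genes were, and 3 were lower, where 0.976% were. The 8 include the siRNA target and 3 protocadherins that share the same windows. The 214 genes had a median log2 fold change of 0.03, against 0.00 for all genes tested, and an unadjusted p under 0.05 was reached by 47 (22.0%), against 19.2% of all. These genes were also more abundant, with a median of 708 normalised reads against 328, and the part of level in the count was not tested. Both counts moved when a single library was left out. Without hnRNPA1 siRNA replicates 1, 2, 3 and 4 in turn 5, 2, 2 and 4 of these genes passed, and without control replicates 1, 2 and 4 in turn 3, 4 and 3. Over all genes 74 and 69 passed without hnRNPA1 siRNA replicates 2 and 3, and 73, 138, 156 and 61 without control replicates 1 to 4.

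MNAT1, which assembles the CDK-activating kinase, had 543, 525, 507 and 474 normalised reads with hnRNPA1 siRNA, against 831, 738, 670 and 748 with control siRNA. The groups did not overlap, and MNAT1 fell (log2 fold change -0.54, SE 0.08, limma adjusted p = 0.0074), a call kept without any 1 library. The unlisted-gene window over it, at chr14:60968214-60968714, had a signal value of 1.10, and MNAT1's own 1.01. TMEM19 had 961, 906, 936 and 805 normalised reads with hnRNPA1 siRNA, against 1221, 1276, 1125 and 1114 with control siRNA (log2 fold change -0.39, SE 0.08, limma adjusted p = 0.030). All 4 hnRNPA1 siRNA libraries were below all 4 control libraries, but the call was lost without hnRNPA1 siRNA replicate 2, 3 or 4 or control replicate 1, 2 or 4, with log2 fold changes of -0.34 to -0.42 over all 8 omissions. SMARCC2, a subunit of the SWI/SNF chromatin remodeller, had 1469, 1466, 1514 and 1601 normalised reads with hnRNPA1 siRNA, against 1041, 1258, 1241 and 1126 with control siRNA. It rose without overlap between the groups (log2 fold change 0.38, SE 0.08, limma adjusted p = 0.031), a call lost without hnRNPA1 siRNA replicate 2, 3 or 4 or control replicate 1 or 4, with 0.32 to 0.42 over all omissions.

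RNF216P1, a pseudogene under RBAK-RBAKDN windows, had 363, 343, 346 and 398 normalised reads with hnRNPA1 siRNA, against 284, 292, 260 and 259 with control siRNA. The groups did not overlap (log2 fold change 0.40, SE 0.09, limma adjusted p = 0.044), but the call was lost without any 1 of the 8 libraries, with 0.36 to 0.43. As a copy of RNF216 it may share reads with the parent. PCDHGB2, a cell adhesion protein, had 24.9, 24.9, 21.6 and 27.9 normalised reads with hnRNPA1 siRNA, against 5.12, 9.43, 9.61 and 10.7 with control siRNA. The groups did not overlap (log2 fold change 1.45, SE 0.27, limma adjusted p = 0.020). The call was lost without hnRNPA1 siRNA replicate 2 or 3, with 1.24 to 1.55 over all omissions. PCDHGB6 averaged 68.4 ± 5.49 with hnRNPA1 siRNA and 35.9 ± 10.9 with control siRNA, and PCDHGA4 28.8 ± 3.81 and 14.4 ± 1.32 (SD, n = 4 each). Their log2 fold changes were 0.95 each (limma adjusted p = 0.039 and 0.041), calls kept for PCDHGB6 without control replicate 3 only and for PCDHGA4 in none of the 8 omissions. All 14 protocadherin genes tested here had a log2 fold change above 0, of 0.03 to 1.45, with mean levels of 11.2 to 246, and they share exons and so are not separate measurements.

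**Figure D5:**
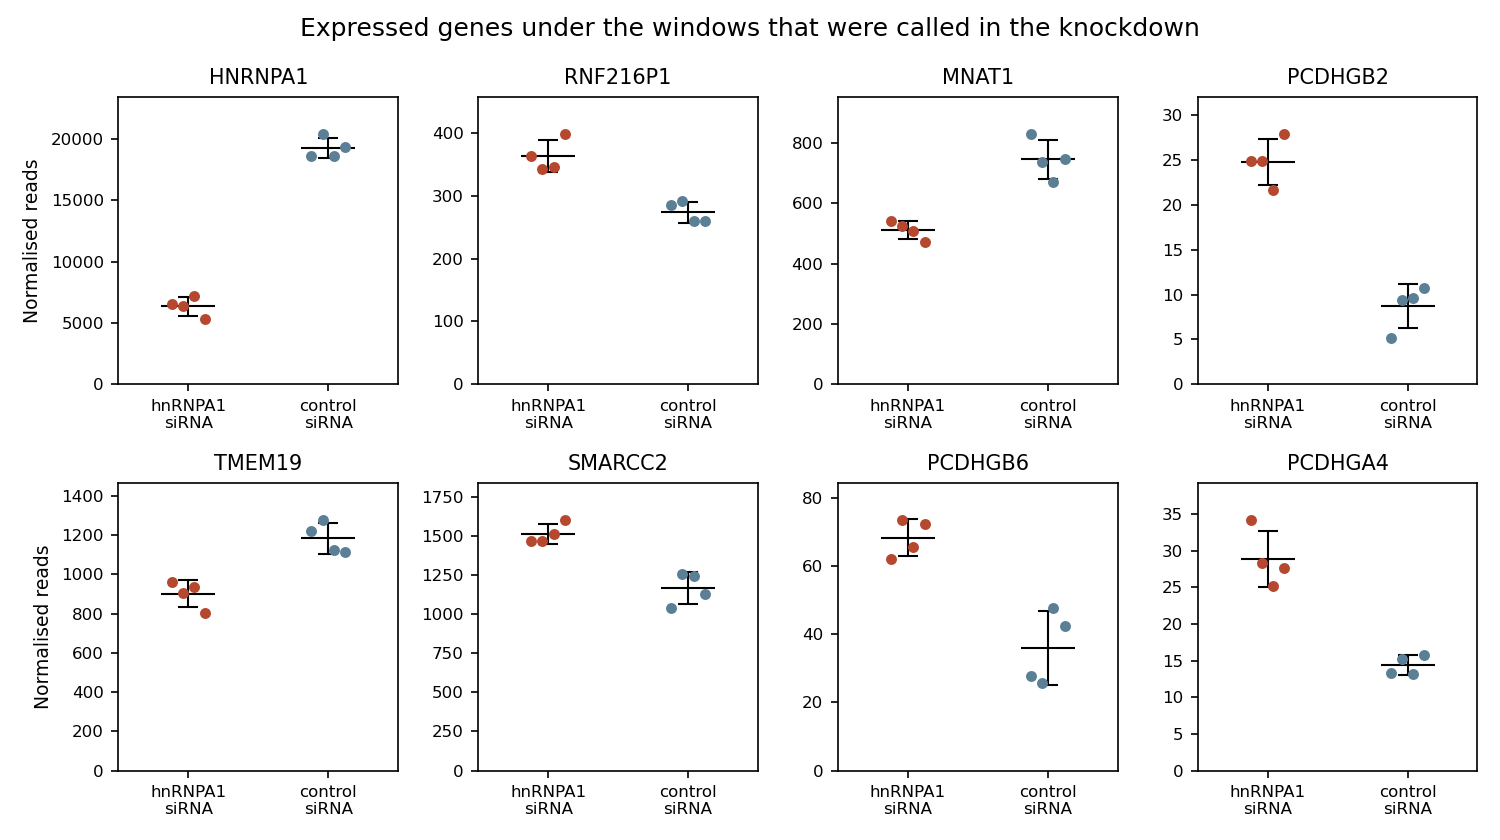
Normalised reads (vertical axis, each panel from 0) of the 8 called genes in 4 hnRNPA1 siRNA libraries (left in each panel) and 4 control siRNA libraries (right), 1 point per library with mean and SD. In none of the 8 panels do the groups overlap; HNRNPA1, MNAT1 and TMEM19 are lower with hnRNPA1 siRNA and the other 5 are higher.

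Other expressed genes under high unlisted-gene windows did not pass. SNHG22 had 346, 423, 358 and 424 with hnRNPA1 siRNA, against 271, 371, 406 and 272 with control siRNA, and the groups overlapped (log2 fold change 0.25, SE 0.14, limma adjusted p = 0.34). SNRPD3, VTI1B, RDH14 and ELF2 had log2 fold changes of -0.05, 0.02, -0.07 and 0.02 with SEs of 0.07 to 0.08, and limma adjusted p-values of 0.67 to 0.92.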

How the data were processed

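The authors deposited 1 window list per RIP compartment, in which each 500-base window has a signal score, a p-value and a q-value; the largest q of an unlisted-gene window is 0.04985. The sources used here do not give the peak caller, build or background library. In all 3068 genes with several windows the starts differ by multiples of 500, and 95.5% of windows with a RefSeq symbol lie within 500 bases of that gene's GRCh38.p14 span; coordinates are printed as listed. The authors deposited siRNA gene values as a normalised signal; Partek, STAR 2.7.8a, DESeq2 and hg38 are named, with no roles, per the submitters' processing notes. Between 82.4% and 84.7% of values per library are whole multiples of 1 step (tolerance 0.02), so they were not treated as counts, although the design assumed counts or normalised values.

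Members, classes, gene lists and naming rules were chosen with earlier results of these data known. Classes follow symbols and RefSeq types; RefSeq strand came from the start table or the gene's own windows. Overlaps of at least 1 base used bedtools 2.31.1. A window counted as inside a gene when at least 50% of it lay in the span of a gene with another symbol. Genes reaching 10 normalised reads in 4 or more libraries entered limma 3.58.1 (R 4.3.3, variance trend, log2(value + 1), no replicate block), which understates changes of low genes. On simulated data over 15267 genes it found 95 of 100 planted 2-fold changes and 75 of 100 planted 1.5-fold changes. Its 182 calls there included 12 false ones. The share of false calls in the siRNA libraries themselves was not tested. Named genes are HNRNPA1, those of the 20 highest windows (1 gene among these and 1 marker are not reported here), the 3 highest of each class, the 10 with most windows, those in all 3 lists, the 10 highest same-strand pairs and called expressed genes. Alternatives were overlap length, strand, q, signal, ID matching, pseudocount, filter, threshold, replicate block and each library left out. Promoter and microRNA sequences come from RefSeq; no genome sequence was used.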

Additional observations from a re-analysis of the deposited data

How the results depend on the processing

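Unlisted-gene windows overlapping a same-strand window of an expressed gene were 20.5% when 250 shared bases were asked for, 22.3% with a q of at most 0.005 in both lists, 18.5% among windows above the list's median signal and 52.2% on either strand. Overlap with a mitochondrial-fraction window was 2.73% with a q of at most 0.005. With the highest window of each gene only, the median signal value was 1.39. With classes from symbols alone, 214 windows had a symbol without a class, and protein-coding, pseudogene and other noncoding windows were 0. The rule gave 1267 windows when matched by ID or symbol, 1131 with late IDs left out and 915 with a q of at most 0.005, against 1275. The median difference of the closest same-strand pairs without protocadherin windows, an alternative chosen after seeing the data, was 0.13.

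An adjusted p under 0.01 called 48 genes, of which 2 expressed genes under unlisted-gene windows, and 13 of 468 such genes (2.78%) were called when either strand counted as over. Leaving out 1 library gave 61 to 254 calls over all genes and 2 to 7 under these windows; the HNRNPA1 log2 fold change was -1.67 to -1.52. The ELF2 log2 fold change ranged over -0.019 to 0.054, turning to -0.011 without hnRNPA1 siRNA replicate 1 and to -0.019 without control siRNA replicate 4. The replicate block called 1191 genes (7.80%), and 18 of 214 under these windows (8.41%), a share close to that of all genes, but same-numbered libraries correlated by only 0.04 to 0.29 and 2 of 4 hnRNPA1 siRNA libraries correlated best with their own number, so the numbers were not taken to pair the samples. Of 28 groups of 4 libraries checked, none had a library apart by Dixon's test.

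Each window list pools its compartment, so no window value has a replicate error. The depth of the RIP libraries is not known from the lists, and absence from a list does not show absence of binding. Genes without a symbol rest on Ensembl IDs only.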
